A study of Mus musculus with 6 samples.

Results

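Transcripts of 9 genes that make, bind and break down retinoic acid were followed in mouse spermatogonia, the dividing precursor germ cells of the testis, isolated as positive for an ID4-GFP reporter. ID4 is an inhibitor of transcription factor binding that is high in the least differentiated of these cells, and GFP is a green fluorescent protein. The genes were taken by symbol from a deposited table of 23355 gene entries, and each of the 9 matched 1 entry. They are the retinol and retinaldehyde enzymes Rdh10, Rdh11 and Dhrs3, the retinaldehyde dehydrogenases Aldh1a1, Aldh1a2 and Aldh1a3, the retinoic acid binding proteins Crabp1 and Crabp2, and the retinoic acid hydroxylase Cyp26b1. The groups were 3 control samples and 3 samples with germ cell overexpression of ID4, all labelled as testis and, per the series design, all from cells positive for the ID4-GFP reporter. The overexpression is described as constitutive. The promoter that drives it, the strain and the age of these animals are not given in the sources used here, nor whether each sample came from 1 animal or a pool.

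Retinoic acid is the vitamin A derivative that commits undifferentiated spermatogonia to differentiation. Retinol is oxidized reversibly to retinaldehyde by short-chain dehydrogenases, retinaldehyde is oxidized irreversibly to retinoic acid by the ALDH1A enzymes, and CYP26 enzymes hydroxylate retinoic acid and so clear it. CRABP proteins hold retinoic acid in the cytoplasm, and the nuclear receptors RAR and RXR carry its effect to genes such as Stra8 and Kit. In the mouse testis Aldh1a1 is best known from Sertoli cells, Aldh1a2 from germ cells, mainly spermatocytes, and Crabp1 from spermatogonia.

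The deposited level is FPKM (fragments per kilobase of transcript, normalised to sequencing depth), and the table holds the authors' combined value for each group of 3 samples. Values per sample were not used here, so no replicate SD is given, library depths are unknown, and whether the samples of the groups overlap cannot be said. A gene was called higher or lower where the authors tested it (status OK) and their q-value was 0.05 or less. FPKM is scaled to length, so levels of different genes can be set side by side within a group. Id4, the overexpressed gene, rose 2.11-fold, from 6.37 to 13.4 FPKM, with q = 0.000835 in the authors' deposited table. The germ cell genes Ddx4 and Dazl, which encode RNA-binding proteins, had 250 and 918 FPKM in controls and 255 and 790 FPKM with overexpression. The median log2 fold change of the 10985 tested genes above 0 in both groups was 0.01.

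The promoters of the called genes are shown because these genes moved in opposite directions and because ID4 acts by sequestering basic helix-loop-helix factors, proteins that bind the E-box CANNTG. RefSeq (GRCm38.p6) gave promoters for 6 of the 9 genes, each running from 250 bases before to 50 after a start site; where a gene had several, the start nearest the deposited gene's 5′ end was used. The called genes with a sequence were Crabp1 (chr9:54764498-54764797, plus strand), Aldh1a2 (chr9:71215539-71215838, plus strand), Aldh1a1 (chr19:20601718-20602017, plus strand) and Dhrs3 (chr4:144892577-144892876, plus strand). Capitals mark CANNTG.
Crabp1: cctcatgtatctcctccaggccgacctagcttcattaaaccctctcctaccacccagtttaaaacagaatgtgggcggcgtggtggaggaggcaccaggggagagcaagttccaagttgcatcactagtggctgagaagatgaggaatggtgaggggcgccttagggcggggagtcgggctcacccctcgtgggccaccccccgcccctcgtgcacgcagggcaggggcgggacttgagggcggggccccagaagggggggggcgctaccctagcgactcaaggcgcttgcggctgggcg
Aldh1a2: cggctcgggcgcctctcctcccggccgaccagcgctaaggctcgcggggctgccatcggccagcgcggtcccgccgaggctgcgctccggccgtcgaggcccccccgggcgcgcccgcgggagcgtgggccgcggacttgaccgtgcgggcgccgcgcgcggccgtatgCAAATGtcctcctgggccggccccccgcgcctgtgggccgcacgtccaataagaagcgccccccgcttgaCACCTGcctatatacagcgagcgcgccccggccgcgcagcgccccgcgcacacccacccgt
Aldh1a1: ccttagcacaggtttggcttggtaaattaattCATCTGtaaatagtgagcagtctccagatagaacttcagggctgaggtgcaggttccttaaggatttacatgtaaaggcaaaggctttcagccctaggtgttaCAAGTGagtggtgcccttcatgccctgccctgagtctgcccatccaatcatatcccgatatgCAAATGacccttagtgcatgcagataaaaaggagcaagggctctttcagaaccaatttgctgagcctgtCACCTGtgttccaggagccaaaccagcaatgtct
Dhrs3: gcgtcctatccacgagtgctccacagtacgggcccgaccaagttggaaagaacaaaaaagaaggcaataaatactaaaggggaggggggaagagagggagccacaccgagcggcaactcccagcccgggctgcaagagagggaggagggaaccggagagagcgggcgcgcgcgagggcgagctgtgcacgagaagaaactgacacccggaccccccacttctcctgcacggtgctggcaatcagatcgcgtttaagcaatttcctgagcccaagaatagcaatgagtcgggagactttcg
The windows differed in base composition and in E-boxes. Aldh1a2, which fell, has 78.0% G and C with 50 CpG dinucleotides and 2 E-boxes. Aldh1a1, which rose, has 47.0% G and C with 1 CpG and 4 E-boxes. Crabp1, which fell, and Dhrs3, which rose, have no CANNTG in these windows, and have 17 and 21 CpG dinucleotides. The median of all 32851 RefSeq promoters was 52.7% G and C and 7 CpG, and 72.3% of them hold a CANNTG. The specific E-boxes CAGCTG and CACGTG, in 16.3% and 7.15% of all promoters, and the retinoic acid receptor hexamers AGGTCA and AGTTCA, searched on both strands and in 16.3% and 14.0% of all promoters, were in none of these 4 windows. CAGCTG and CACGTG are themselves CANNTG matches. Genes that rose and genes that fell were thus found both with and without a CANNTG, and a match is a description of letters, not of binding.

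Of the 9 genes, 5 were called, in both directions. Aldh1a1, Aldh1a3 and Dhrs3 rose, Crabp1 and Aldh1a2 fell, Crabp2 and Rdh11 were tested without a call, and the authors did not test Rdh10 and Cyp26b1. Among the 7 tested genes, 3 were called higher, against 9.59% of all 10990 tested genes, and 2 were called lower, against 7.42%; in either direction 5 of 7 were called, against 17.0% of all tested genes. The median log2 fold change of the 7 was -0.19. All 5 called genes carry the smallest p-value in the authors' deposited table, 5e-05, which 657 called genes share, so the p-values do not rank them.

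**Figure D1:**
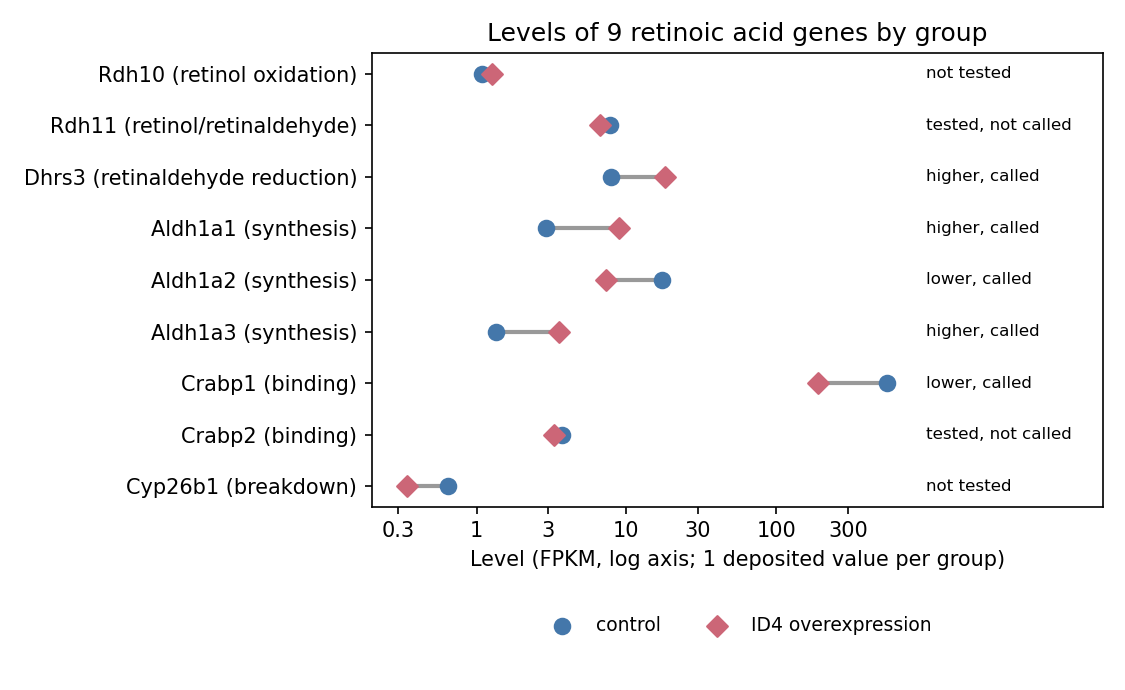
Level of each of the 9 genes in FPKM on a log axis, with circles for the authors' control value and diamonds for the overexpression value (3 samples per group, 1 deposited value each, no error available). Crabp1 sits far to the right of the others in both groups, and the 3 called rises start from levels of 1.34 to 7.91 FPKM.

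Crabp1, the cytoplasmic retinoic acid carrier, had by far the highest level of the 9 genes and fell. It went from 544.4 FPKM in controls to 189 FPKM with overexpression, a log2 change of -1.53 or 2.88-fold lower (q = 0.000835 in the authors' deposited table). It lies on chromosome 9 of GRCm38, positions 54764808 to 54773109, on the plus strand, and no other annotated gene overlaps it. By level it ranked 208 of the 10990 tested genes in controls and 605 with overexpression. The authors' test statistic of -7.45 ranked 11 by absolute size among all tested genes. Among 1124 tested genes with a mean level of at least 100 FPKM, a limit chosen after the values were seen, 2 had a log2 fold change this low or lower: Crabp1 and Snhg9, a small nucleolar RNA host gene that was not called.

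Crabp2, the paralog that delivers retinoic acid to the nuclear receptor RAR, had a much lower level and was not called. It had 3.73 FPKM in controls and 3.26 FPKM in the overexpression group, a log2 change of -0.19 (q = 0.791 in the authors' deposited table). No interval of that difference can be given, and the missed threshold does not show that the level was the same. Crabp1 exceeded Crabp2 146-fold in controls and 57.9-fold with overexpression, so Crabp1 made up 99.3% and 98.3% of the summed CRABP level. Crabp2 lies on chromosome 3, positions 87948693 to 87953372.

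The ALDH1A enzymes, which carry out the irreversible step to retinoic acid, did not move together. Aldh1a2, the most abundant of them in controls, fell from 17.2 to 7.31 FPKM, a log2 change of -1.23 or 2.35-fold lower. Aldh1a1 rose from 2.90 to 8.88 FPKM, 3.06-fold, and Aldh1a3 rose from 1.34 to 3.54 FPKM, 2.65-fold. The q-value in the authors' deposited table was 0.000835 for each of the 3 genes, and their test statistics were -3.78 for Aldh1a2, 4.02 for Aldh1a1 and 3.19 for Aldh1a3. As a log2 fold change, Aldh1a1 was higher than 97.8% of tested genes and Aldh1a3 than 96.8%, while 1.36% of tested genes lay below Aldh1a2.

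The opposite changes nearly cancelled in the summed level and altered its makeup. The ALDH1A genes summed to 21.4 FPKM in controls and 19.7 FPKM with overexpression, a log2 change of -0.12. Aldh1a2 made up 80.2% of the sum in controls and 37.1% with overexpression, a change of -43.1 percentage points. The share of Aldh1a1 was 13.6% in controls and 44.98% with overexpression, and that of Aldh1a3 was 6.26% and 18.0%. Aldh1a2 was 5.91 times the level of Aldh1a1 in controls and 0.824 times with overexpression, so their order was exchanged. These sums and shares come from 1 value per group and have no error or test of their own.

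**Figure D2:**
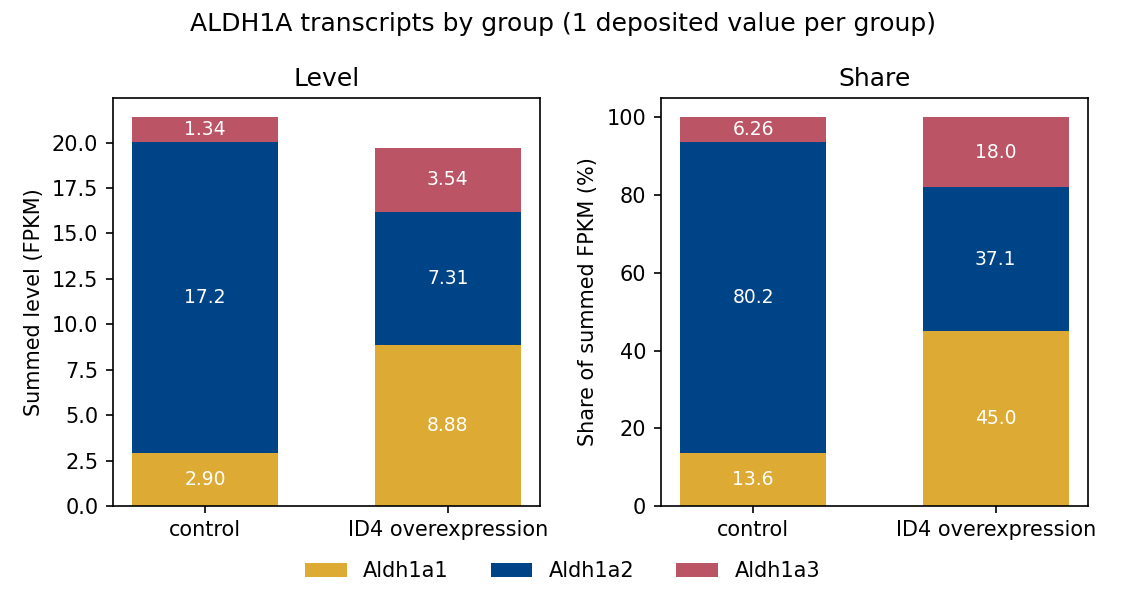
Stacked bars of the ALDH1A levels in FPKM (left) and as a percentage of their sum (right), for the control and ID4 overexpression groups, 1 deposited value per group with no error bar available. The bars reach 21.4 and 19.7 FPKM, while the Aldh1a2 segment goes from 80.2% to 37.1% of the sum.

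The ALDH1A loci are on separate chromosomes. Aldh1a1 is on chromosome 19 (20601982 to 20643462, plus strand), Aldh1a2 on chromosome 9 (71215789 to 71296243, plus strand) and Aldh1a3 on chromosome 7 (66390893 to 66427477, minus strand). Aldh1a1 has a close relative, Aldh1a7, 49487 bases away on the same chromosome, and 3.06% of the 50-base words in its annotated transcripts also occur in Aldh1a7. Aldh1a7 itself had 0.150 FPKM in controls and 0.364 FPKM with overexpression and was not tested, so its whole level was small beside that of Aldh1a1. The deposited Aldh1a1 entry starts 14 bases from the nearer of the 2 RefSeq start sites, while the GENCODE gene begins at 20492715. Aldh1a2 shares no 50-base word with another annotated transcript, and a processed pseudogene, Gm48124, lies in its intron on the opposite strand. For Aldh1a3 the shared words were 1.15%.

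Among the enzymes of the reversible step, Dhrs3 rose and the others were not called. Dhrs3 reduces retinaldehyde back to retinol and is itself induced by retinoic acid in several tissues. It went from 7.91 to 18.0 FPKM, a 2.28-fold rise (q = 0.000835 in the authors' deposited table). It lies on chromosome 4, positions 144892827 to 144927645, on the plus strand, with no overlapping annotated gene.

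Rdh11, a microsomal enzyme that reduces retinaldehyde and can also oxidize retinol, had 7.82 FPKM in controls and 6.61 FPKM with overexpression (log2 change -0.24; q = 0.564 in the authors' deposited table). Rdh10, the main retinol oxidase of the mouse embryo, had 1.08 FPKM in controls and 1.28 FPKM with overexpression and was not tested by the authors. Rdh11 and Dhrs3 were nearly level in controls, at a ratio of 0.989, and stood at 0.367 with overexpression. Rdh10 to Dhrs3 was 0.137 in controls and 0.0708 with overexpression, a log2 change of -0.95 without a test. Both ratios mostly restate the rise of Dhrs3 and show no change of Rdh11 or Rdh10. Rdh11 lies on chromosome 12 (79175551 to 79191819, minus strand) and Rdh10 on chromosome 1 (16105882 to 16132550, plus strand).

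Cyp26b1, a hydroxylase that clears retinoic acid and keeps fetal male germ cells from entering meiosis, was the lowest of the 9 genes. It had 0.647 FPKM in controls and 0.346 FPKM with overexpression, and the authors did not test it, so no change is stated. Its relative Cyp26a1 had 1.24 and 1.19 FPKM and was not tested either. Cyp26b1 lies on chromosome 6 (84571414 to 84593908, minus strand).

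By level, the order in controls was Crabp1, Aldh1a2, Dhrs3, Rdh11, Crabp2, Aldh1a1, Aldh1a3, Rdh10 and Cyp26b1. With overexpression it was Crabp1, Dhrs3, Aldh1a1, Aldh1a2, Rdh11, Aldh1a3, Crabp2, Rdh10 and Cyp26b1. Crabp1 stayed first, and Rdh10 and Cyp26b1 stayed last. Without a spread over samples, neighbours in either order cannot be shown to differ. Crabp1 alone was 92.7% of the summed level of the 9 genes in controls and 79.3% with overexpression; the other 8 summed to 42.6 and 49.3 FPKM.

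**Figure D3:**
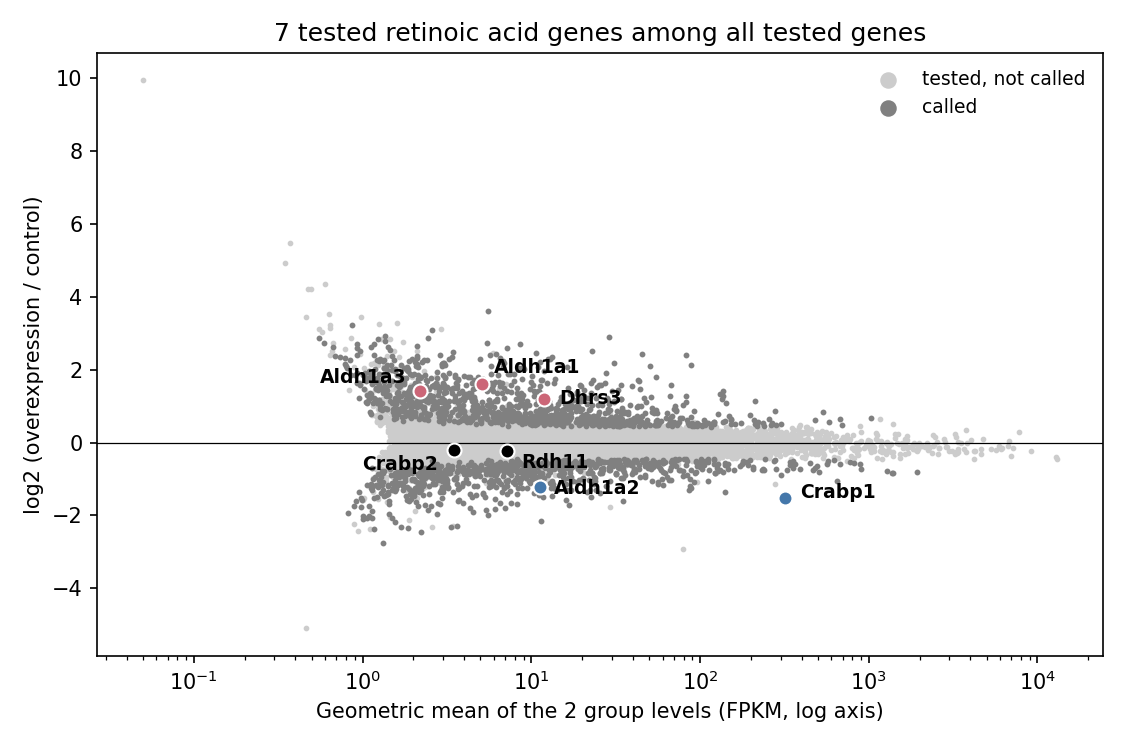
Log2 fold change (overexpression over control) against the geometric mean of the 2 group levels (FPKM, log axis) for all tested genes above 0 in both groups, 1 point per gene, with the 7 tested retinoic acid genes labelled. Crabp1, at a log2 change of -1.53, lies apart from most genes of similar level, while Crabp2 and Rdh11 lie near 0.

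Other genes of retinoid handling, from a list that leaves out the 9, also split. Of 37 with an entry, the authors tested 14, with a median of -0.02 on the log2 scale. Of the 14, 3 were called lower and 3 higher, against 7.42% and 9.59% of all tested genes. The lower genes included 2 carriers. Rbp4, the retinol carrier of plasma, fell from 35.0 to 14.2 FPKM, and Fabp5, a fatty acid binding protein that can also carry retinoic acid, from 13.1 to 7.15 FPKM. Dgat1, an acyltransferase that can esterify retinol, fell from 13.5 to 5.06 FPKM; on its chromosome, 15, the authors' test gave lower calls for 56.2% of 413 genes.

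The higher genes were oxidoreductases, as were most tested genes of this list that were not called, so the class does not set them apart. Adh1, an alcohol dehydrogenase that oxidizes retinol, rose from 7.03 to 21.8 FPKM, and Akr1b8, an aldo-keto reductase, from 27.8 to 50.2 FPKM. Dhrs7, a short-chain dehydrogenase, rose from 1.06 to 5.12 FPKM. These genes had q = 0.000835 in the authors' deposited table, as did Rbp4 and Dgat1; Fabp5 had 0.0107. The other 8 tested genes were not called, among them Rdh13, Rdh14, Retsat and Adh5, which were named after their values were seen. The 23 untested genes had at most 1.36 FPKM in controls and 1.19 FPKM with overexpression.

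Of the receptors, the authors tested only the RXR genes. Rxrg rose from 1.19 to 2.74 FPKM (q = 0.00628 in the authors' deposited table). Rxra and Rxrb, at 11.0 and 4.63 FPKM in controls and 9.92 and 3.92 FPKM with overexpression, were not called. Rara, Rarb and Rarg were not tested and had between 0.299 and 1.56 FPKM in controls and between 0.1005 and 1.23 FPKM with overexpression.

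Of 14 listed genes known to respond to retinoic acid, the authors tested 3, and the median of the 3 on the log2 scale was -1.14. Among them 2 were called lower and 0 higher, against 7.42% and 9.59% of all tested genes. The 11 untested genes had at most 1.24 FPKM in controls and 1.19 FPKM with overexpression. Dhrs3, which retinoic acid also induces in several tissues, is not on this list and was called higher. Stra8, which is needed for meiotic entry, fell from 131 to 57.7 FPKM, and Kit, the receptor of differentiating spermatogonia, from 84.3 to 38.1 FPKM. Rec8, a meiotic cohesin, had 11.7 and 9.23 FPKM and was not called. The authors' deposited table lists q = 0.000835 for Stra8 and Kit and 0.276 for Rec8. In bulk samples, fewer cells of a type and less RNA per cell cannot be told apart, for these genes as for Crabp1 and Aldh1a2.

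Most tested markers of Sertoli cells, Leydig cells, macrophages and fibroblasts were called higher in the same comparison. No peritubular myoid or endothelial marker was called higher. Of all tested genes, 9.59% were called higher and 7.42% lower, and the counts of each list here are read beside these shares. Of 19 Sertoli cell markers 11 were tested, 9 were called higher and 0 lower. The tested markers had a median of 1.59 on the log2 scale, and the list summed to 106 FPKM in controls against 347.0 FPKM with overexpression, a 3.26-fold difference. The summed Leydig cell, macrophage and fibroblast lists differed 2.82-fold, 3.70-fold and 2.46-fold, and the peritubular myoid and endothelial lists 1.06-fold and 0.762-fold. The corresponding folds of the genes among the 9 that rose were 3.06 for Aldh1a1, 2.65 for Aldh1a3 and 2.28 for Dhrs3. Such folds are thus not particular to the Sertoli cell list. Clu, Defb19 and Cst12 were the called Sertoli cell markers with the highest levels, at 117, 77.9 and 65.8 FPKM with overexpression. Of 8 Leydig cell markers 5 were tested and 4 were higher, and the list summed to 26.7 and 75.5 FPKM. All 14 tested macrophage markers of 15 with an entry were higher, and the list summed to 92.8 and 344 FPKM. Of 7 fibroblast markers 3 were tested, of which Sparc and Pdgfra were called higher and Dcn was not called. The list summed to 18.8 and 46.2 FPKM, of which Sparc alone held 11.5 and 34.1 FPKM. The untested Col1a1, Col1a2, Col3a1 and Lum had at most 1.28 FPKM in controls and 1.62 FPKM with overexpression. No marker on these lists was at 0 in either group, but Amh, a marker of immature Sertoli cells, had 0.113 FPKM in controls and 0.037 FPKM with overexpression.

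In the remaining lists, calls are read beside the 17.0% of all tested genes called. None of 8 peritubular myoid markers was tested, and their sums were 4.93 and 5.21 FPKM. Of 6 endothelial markers 1 was tested, Egfl7, which fell from 20.98 to 13.7 FPKM, and the list summed to 23.1 and 17.6 FPKM. Of 10 spermatocyte markers 7 were tested, of which Ldhc and Pgk2 were called higher and 0 lower. Ldhc had 4.89 and 13.7 FPKM, and Pgk2 had 0.538 and 1.96 FPKM. The list summed to 873 and 829.6 FPKM, most of it from Tex101, Sycp3 and Sycp1, which were not called. These had 394, 318 and 99.2 FPKM in controls and 400, 264 and 91.5 FPKM with overexpression, so the sum says little about Ldhc and Pgk2. Of the 7 germ cell markers, Id4 and Gfra1 were higher and Uchl1 was lower. Id4 is the overexpressed gene, so its call is not counted as a result. The 7 summed to 1990.5 and 1687 FPKM, of which Id4 gave 6.37 and 13.4 FPKM. The part of somatic RNA in the rises of Aldh1a1, Aldh1a3, Dhrs3 and Adh1 was not tested. Crabp1 and Aldh1a2 stood at 0.347 and 0.426 times their control levels, and Stra8 and Kit at 0.439 and 0.453 times theirs. The summed germ cell markers stood at 0.848 times their control level, but most of that sum was Dazl and Uchl1, at 0.861 and 0.667 times. The other markers besides Id4 stood at 1.02 (Ddx4), 0.964 (Zbtb16), 1.24 (Sall4) and 2.36 times (Gfra1). The median log2 fold change of the 7, Id4 included, was 0.03. The part of cell makeup in the falls of Crabp1 and Aldh1a2 was not tested.

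**Figure D4:**
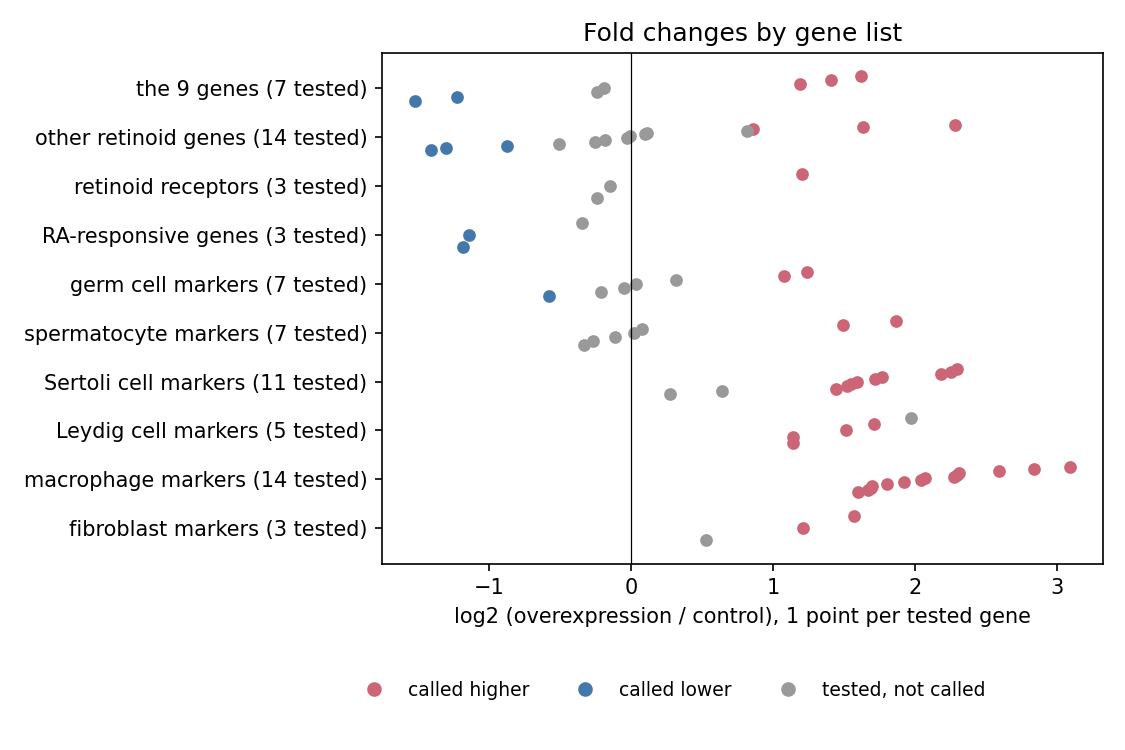
Log2 fold change (overexpression over control) of every tested gene on each list, 1 point per gene, coloured by the authors' call. The 7 tested of the 9 genes spread from -1.53 to 1.61. The 3 tested genes of the retinoic acid responsive list, which leaves out Dhrs3, lie below 0. All tested Sertoli, Leydig, macrophage and fibroblast markers lie above 0, and peritubular and endothelial markers are not shown.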

How the data were processed

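RNA of 6 samples was sequenced by the authors after Trizol extraction and oligo d(T) priming, per the labels' protocols. The submitters' processing notes name TopHat, Cufflinks and mm9, with no versions. Per the file headers, the deposited table gives FPKM per gene and group, already combined over 3 samples, with the authors' p-value, q-value, test status and a test statistic, a score per gene. Library scaling and the use of strand are not stated. Depth per sample is unknown, so no interval is given, and no model could be refitted. The q-values differed by at most 4.77e-05 from a Benjamini-Hochberg adjustment over the tested genes.

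Fold changes were recomputed from FPKM, since the deposited log2 column has error text in 661 cells. Although the notes name mm9, 99.1% of 21589 symbols overlapped the gene of the same name in GENCODE M21 (GRCm38). Positions are therefore printed as GRCm38, 1-based. Shared sequence was counted as words of 50 bases over all annotated transcripts. Calling and adjustment were tested on simulated data. The work used Python 3.11.15 and pandas 2.3.3.

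The 9 genes and all lists were chosen with earlier results of these data known, and no list was tested as a set. From the lists as first drawn up, 1 gene is not reported here. Named genes were the 9, every called gene of the retinoid, receptor and responsive lists, and up to 3 called markers per cell type list. Uncalled or untested genes beyond the 9, and Snhg9, were named after their values were seen. Other settings tried were an authors' q of 0.01 or 0.1, a floor of 1 FPKM in either group, at least 1 on the absolute log2 scale, added constants of 1 or 0.1 FPKM, and centring on the median of tested genes. Where nothing says that samples came from separate animals, the authors' p-values measure the spread between these samples.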

Additional observations from a re-analysis of the deposited data

How the results depend on the processing

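The counts of called genes among the 9 (3 higher, 2 lower) were the same under each of the 4 alternative thresholds, none of which could have changed them. The 5 called genes share an authors' q of 0.000835, and the next q was 0.564, of Rdh11. The smallest absolute log2 change of the 5 was 1.19, of Dhrs3. The least abundant of them, Aldh1a3, reached 3.54 FPKM with overexpression. For single genes, added constants cannot turn a direction and do not enter the authors' q, so they are no check of a call. Subtracting the median could not turn a sign either. It was 0.01, and the log2 change nearest 0 among the 9 was -0.19, of Crabp2. Among other retinoid genes, lower calls went from 3 to 2 at an authors' q of 0.01, at an absolute log2 fold change of at least 1 and, chosen after seeing the data, without chromosome 15; higher calls went from 3 to 2 at that fold. Responsive genes gave 2 lower calls under each of the 4 thresholds. These could not have changed that count, since the authors' q was 0.000835 for Stra8 and Kit and 0.276 for Rec8. The log2 changes of Stra8 and Kit were -1.19 and -1.14.

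With pseudocounts of 1 and 0.1 FPKM, the change in the Aldh1a2 share of the ALDH1A sum was -37.9 and -42.5 percentage points, against -43.1. The log2 change of the ALDH1A sum was -0.10 and -0.11, and -0.13 with the median subtracted, against -0.12. The change in the Crabp1 share of the CRABP sum was -1.33 and -1.05 percentage points, against -1.02. The log2 change of Rdh10 to Dhrs3 was -0.97 and -0.96, against -0.95. These follow from the constant added or subtracted.

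No paired analysis was possible because the table holds 1 value per group and the labels pair no samples; leaving out replicates was not run for the first reason. Low levels limit Rdh10 and Cyp26b1, which the authors did not test, and the missing spread limits every share and order of levels.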
